A study of Mus musculus with 4 samples.

Results

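The PPAR, LXR and RXR receptors are nuclear receptors, transcription factors that are switched by lipids. The 6 genes described here were the listed members Pparg and Ppard (PPARγ and PPARδ), Nr1h2 and Nr1h3 (LXRβ and LXRα) and Rxra and Rxrb (RXRα and RXRβ), found by gene symbol among the 27998 genes of the files, and all 6 were found. They were followed in macrophages, monocytes, neutrophils and dendritic cells. The mice were males of 8 to 12 weeks on the C57BL/6J background, and their tibialis anterior (the shin muscle) had been injected with Naja pallida cardiotoxin (CTX), which kills muscle fibres. CD45+ cells, that is, leukocytes, had been enriched with magnetic beads, and 3′ RNA of single cells had been sequenced from droplets, at 2 or 4 days post-injury (dpi2 and dpi4). Control mice were Bach1 fl/fl littermates. Mice labelled KO were Bach1 fl/fl and also carried Lyz2-Cre, so both genotypes held the floxed Bach1 gene (loxP sites around exon 4, which encodes the DNA-binding domain of this heme-regulated repressor). The Lyz2 promoter is active in monocytes, macrophages and neutrophils, and not all cells of a class need have recombined. There was 1 library for each of the 4 groups, so no spread between animals was measured and no test was run.

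PPARs and LXRs bind DNA as heterodimers with an RXR. PPARs respond to fatty acids and their derivatives and drive genes of fatty acid uptake, storage and oxidation. LXRs respond to oxysterols and drive cholesterol efflux and lipid synthesis. In macrophages that engulf dead cells, both branches are known to handle the lipid load, and PPARγ is known to act in macrophages of regenerating muscle.

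The genes lie on 4 chromosomes of GRCm38, the assembly behind the mm10 build used for the files. Pparg (ENSMUSG00000000440) spans chromosome 6, 115360951 to 115490399, plus strand, and Ppard (ENSMUSG00000002250) chromosome 17, 28232700 to 28301474, plus strand. Nr1h2 (ENSMUSG00000060601) spans chromosome 7, 44549616 to 44553951, minus strand, and Nr1h3 (ENSMUSG00000002108) chromosome 2, 91184061 to 91202834, minus strand. Rxra (ENSMUSG00000015846) spans chromosome 2, 27676440 to 27762957, plus strand, and Rxrb (ENSMUSG00000039656) chromosome 17, 34031812 to 34038399, plus strand. The antisense gene Gm44079, which is also counted in the files, overlaps Pparg over 13176 bases. Gm13783 overlaps Nr1h3 on its own strand over 6873 bases and is not a row of the files. How the counting treated strand is not given in the sources used here, so UMIs of these overlapping stretches could not be told apart.

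Because BACH1 binds the Maf recognition element (MARE) and the antioxidant response element (ARE), the promoters of the receptors were searched for both. RefSeq (GRCm38.p6) gives 11 promoters for the 6 genes, each 250 bases before to 50 bases after a start site. On both strands, none held TGANTCAGC, a part of the MARE that 1.19% of all 32851 mouse promoters held. TGACNNNGC, the core of the ARE, was found in 2 of the 11 promoters and in 12.4% of all promoters. These were the promoter of the second Pparg start and that of Ppard. Direct repeats of the receptors' own half-site (DR1 and DR4) were found in none of the 11, and in 0.0396% and 0.0152% of all promoters. A match is a description of letters only. The 250 bases before the start are shown for these 2 promoters and for the first Rxra start, because Pparg, Ppard and Rxra were the receptors past the size rule between genotypes in macrophages at dpi2. Capitals mark the ARE core. In Pparg it lies on the opposite strand, beginning 233 bases before the start, and in Ppard it begins 4 bases before the start and runs past the stretch shown.
Pparg start 2, chr6:115362099-115362348, plus strand: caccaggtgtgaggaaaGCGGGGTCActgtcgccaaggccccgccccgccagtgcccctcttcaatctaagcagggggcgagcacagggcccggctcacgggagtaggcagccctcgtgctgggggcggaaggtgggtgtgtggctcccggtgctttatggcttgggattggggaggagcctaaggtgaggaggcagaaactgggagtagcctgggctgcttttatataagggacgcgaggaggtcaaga
Ppard start 1, chr17:28232504-28232753, plus strand: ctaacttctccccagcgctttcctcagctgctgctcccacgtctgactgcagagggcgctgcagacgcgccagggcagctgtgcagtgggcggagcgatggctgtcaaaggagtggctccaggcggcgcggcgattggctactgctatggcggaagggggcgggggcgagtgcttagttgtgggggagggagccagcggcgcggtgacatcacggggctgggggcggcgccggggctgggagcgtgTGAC
Rxra start 1, chr2:27676951-27677200, plus strand: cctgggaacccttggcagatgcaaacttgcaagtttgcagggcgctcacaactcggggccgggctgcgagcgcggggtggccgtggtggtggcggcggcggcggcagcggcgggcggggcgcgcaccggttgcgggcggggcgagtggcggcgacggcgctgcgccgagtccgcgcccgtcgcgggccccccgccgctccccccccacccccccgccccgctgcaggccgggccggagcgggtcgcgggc

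The libraries held 4177 to 6602 barcodes and 57010520 to 80228489 UMIs, where a UMI is a distinct RNA molecule. After filtering, the dpi2 libraries held 1952 (control) and 1063 (labelled KO) macrophages, and those of dpi4 held 3340 and 2629. Monocytes numbered 2553 and 979 at dpi2, but only 47 and 61 at dpi4. Neutrophils numbered 630 and 800, then 127 and 36, and dendritic cells 353 and 264, then 383 and 449. All 10 macrophage, 7 monocyte, 7 neutrophil and 9 dendritic cell markers had UMIs in the class named after them in every library. Libraries shared 2 to 14 barcodes with each other. Bach1 itself did not fall in macrophages labelled KO (dpi2: 126 and 147 CPM in control and labelled KO; dpi4: 215 and 231 CPM), and counts per gene at the 3′ end cannot show whether exon 4 was deleted. Lyz2, the gene that carries Cre, went from 8121 CPM in control to 13 CPM labelled KO at dpi2, and at dpi4 from 18296 to 24.2 CPM. Hmox1, a gene that BACH1 is known to repress, stood at 692 and 10767 CPM at dpi2 and at 479 and 7476 CPM at dpi4. A mitochondrial share of 10% or more marked 6.61% to 19.9% of barcodes, which were left out. T or NK cells had 314 and 610 CPM of Lyz2 in the control libraries, and whether this was free RNA, doublets or cells of another class was not tested.

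Levels are in CPM, the UMIs of a gene per 1000000 UMIs of a class in a library, with the exact Poisson 95% interval. Ratios have the exact conditional binomial 95% interval and shares of cells the exact Clopper-Pearson 95% interval. All intervals cover counting error only. A ratio was called past the size rule where it was at least 1.5-fold, its interval left out 1 and the pair of libraries held at least 50 UMIs. Such a call describes these libraries and is no test, and comparisons that share a library are not independent of each other.

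Pparg, the receptor of fatty acid derivatives that drives lipid uptake in macrophages, was lower in the library labelled KO at dpi2 in macrophages, monocytes and dendritic cells alike. In macrophages its level was 43.4 CPM (41.3 to 45.5) in control and 23.3 CPM (21.6 to 25.1) labelled KO at dpi2, and 28.7 CPM (27.4 to 30.1) in control and 31.5 CPM (29.9 to 33.1) labelled KO at dpi4. In monocytes it was 44.8 and 20.9 CPM at dpi2 and 33.2 and 35.9 CPM at dpi4, the last 2 values from 14 and 16 UMIs. In dendritic cells it was 25.1 and 11.1 CPM at dpi2 and 21.2 and 13.5 CPM at dpi4. The control library was thus the higher of each pair at dpi2 in these 3 classes, and only in dendritic cells did this also hold at dpi4. Neutrophils held 3, 2, 0 and 1 Pparg UMIs in the 4 libraries, and for the count of 0 among 364853 neutrophil UMIs the interval ran to 10.1 CPM (8.22 CPM at the floor of 3 counts). T or NK cells, which serve as a background, held 0 to 3 UMIs per library (0 to 4.61 CPM).

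For Pparg at dpi2, the log2 ratio of labelled KO over control was past the size rule in all 3 classes, with macrophages at -0.89 (-1.03 to -0.76), monocytes at -1.10 (-1.29 to -0.91) and dendritic cells at -1.17 (-1.66 to -0.70). At dpi4 it was 0.13 (0.03 to 0.23) in macrophages and -0.66 (-1.10 to -0.21) in dendritic cells, of which the latter passed. The dendritic cell values rest on 112 and 56 UMIs at dpi2 and 103 and 75 UMIs at dpi4, and both dendritic cell calls were lost under some other settings, given below. Lyz2 had 2200 and 3.38 CPM in the dendritic cells of dpi2 and 5410 and 12 CPM in those of dpi4. It was lower labelled KO in T or NK cells too, at 314 and 5.34 CPM at dpi2 and 610 and 0 CPM at dpi4. This fall was therefore not particular to dendritic cells. Hmox1 at dpi2 had 86.9 and 787 CPM in dendritic cells and 13.8 and 235 CPM in T or NK cells. Whether dendritic cells had recombined was not tested. From dpi2 to dpi4, Pparg in macrophages fell by 0.59 on the log2 scale in control (interval -0.69 to -0.50) and moved by 0.43 (0.30 to 0.57) in the libraries labelled KO, where the size rule was not met. The pair at dpi4 therefore lay between the pair at dpi2. After each cell was thinned to 2000 UMIs, 8.82% of control macrophages (7.58% to 10.2%) and 4.61% of macrophages labelled KO (3.42% to 6.07%) had a Pparg UMI at dpi2, against 1.03% and 0% of T or NK cells. Without thinning these shares were 44.7% and 36.3% of macrophages, at median depths of 18110 and 26021 UMIs, and 2.02% and 0% of T or NK cells, at 3913 and 4623 UMIs.

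**Figure D1:**
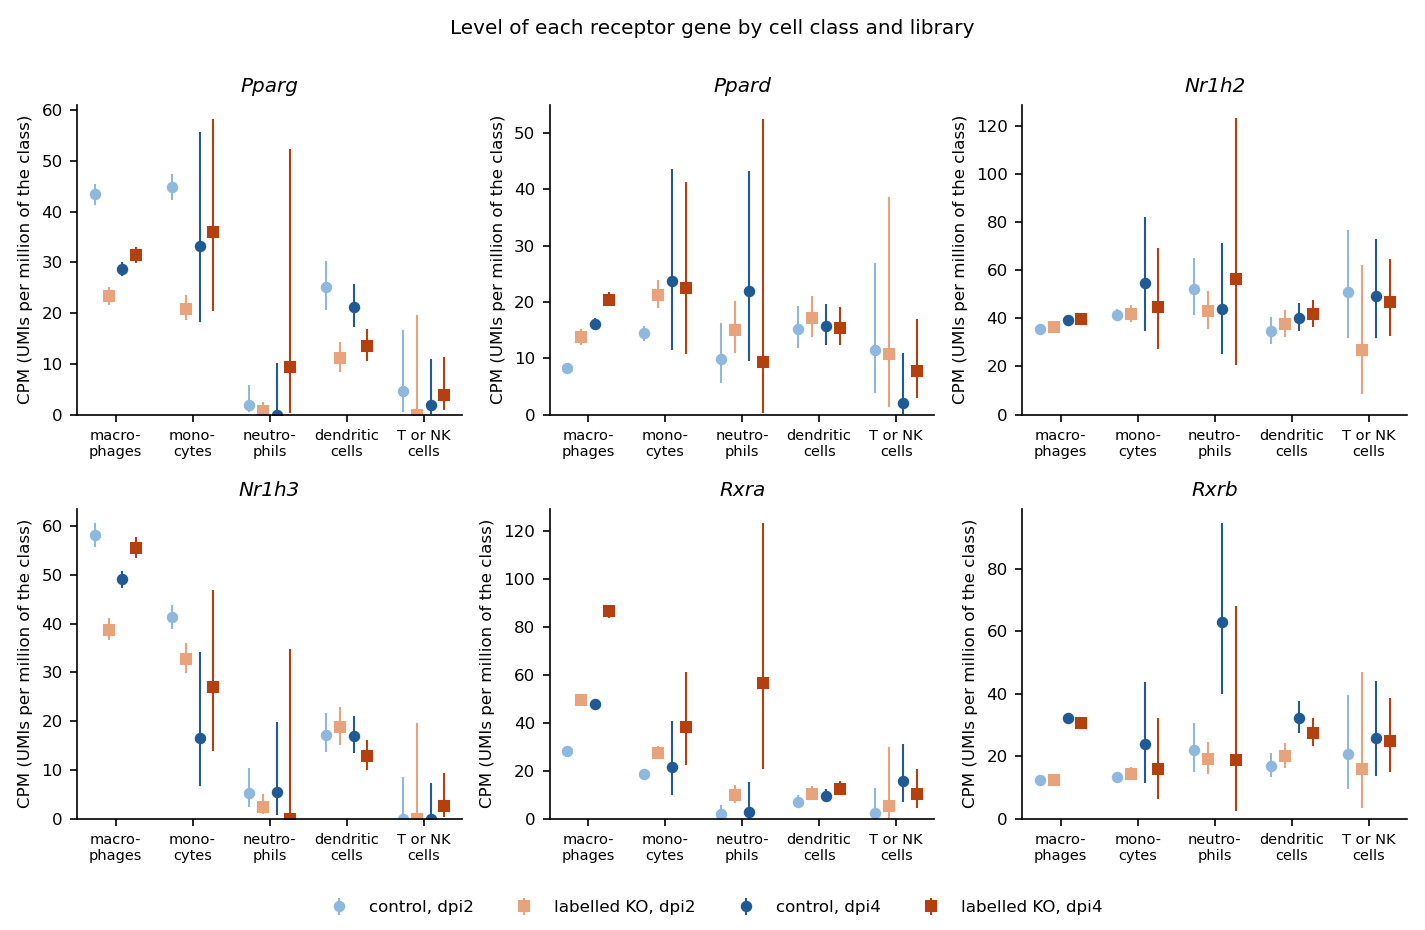
Level of each receptor gene (vertical axes, CPM of the class) in 5 cell classes and the 4 libraries, with exact Poisson 95% intervals. Circles are control and squares labelled KO libraries, in light colours at dpi2 and dark colours at dpi4. Pparg in macrophages stands at 43.4 CPM in control and 23.3 CPM labelled KO at dpi2, Rxra at 86.4 CPM in macrophages labelled KO at dpi4, and monocytes and neutrophils at dpi4 have wide intervals.

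Ppard, the other listed PPAR, was higher in macrophages labelled KO at dpi2. Its macrophage levels were 8.25 CPM (7.35 to 9.22) in control and 13.7 CPM (12.4 to 15.1) labelled KO at dpi2, and 16.1 CPM (15.1 to 17.2) in control and 20.4 CPM (19.2 to 21.8) labelled KO at dpi4. The level was lowest in control at dpi2 and highest labelled KO at dpi4, and the intervals of the 2 libraries in between met at 15.1 CPM. Labelled KO over control, the log2 ratio of 0.73 (0.52 to 0.95) for dpi2 passed the size rule and that of 0.34 (0.21 to 0.47) for dpi4 did not. The call for dpi2 was lost with monocytes and macrophages pooled. After thinning to 2000 UMIs, a Ppard UMI was found in 1.74% (1.2% to 2.44%) of control macrophages and 1.92% (1.18% to 2.95%) of those labelled KO at dpi2, and in 2.7% (2.17% to 3.31%) and 4.33% (3.57% to 5.19%) at dpi4, against 0% to 2.36% of T or NK cells. At this depth the shares of dpi2 thus overlapped and lay within the range of this background, whose top of 2.36% was 3 of 127 cells. After thinning to 1000 UMIs, the shares of dpi2 were 1.03% (0.633% to 1.59%) in control and 2.27% (1.46% to 3.36%) labelled KO. T or NK cells then had 0% to 2.02%. The size of the difference in thinned shares at dpi2 therefore depended on the thinning. Without thinning the shares of dpi2 were 13.8% and 27.5%. In monocytes at dpi2, 14.4 CPM in control and 21.3 CPM labelled KO gave a log2 ratio of 0.57 (0.35 to 0.79), just short of 1.5-fold. In dendritic cells the 4 libraries lay between 15.2 and 17.1 CPM and their intervals overlapped. In neutrophils the levels were 9.89 CPM (5.54 to 16.3) and 15 CPM (10.9 to 20.2) at dpi2, 21.9 CPM at dpi4 in control and 9.40 CPM labelled KO, the last from 1 UMI.

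Nr1h2, the broadly expressed LXR, had no ratio past the size rule in any class or comparison. Macrophages had 35.5, 36.2, 39.3 and 39.6 CPM in control and labelled KO at dpi2 and in control and labelled KO at dpi4. Monocytes had 41.5, 41.9, 54.6 and 44.8 CPM in the same order, dendritic cells 34.5, 37.5, 40.2 and 41.7 CPM, and neutrophils 52.1, 43.0, 43.9 and 56.4 CPM. T or NK cells had 26.7 to 50.7 CPM, so the level in these lymphoid cells overlapped that of the myeloid classes. Between genotypes the macrophage log2 ratio was 0.03 (-0.09 to 0.14) for dpi2 and 0.01 (-0.08 to 0.10) for dpi4. For monocytes of dpi2 it was 0.01 (-0.13 to 0.16). A log2 difference above 0.14 in either direction thus lay outside both macrophage intervals.

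Nr1h3, the LXR of macrophages and liver, was lower labelled KO at dpi2 in the macrophages and monocytes as whole classes, but not in dendritic cells nor in each cluster of these classes. Macrophages had 58.1 CPM (55.7 to 60.6) in control and 38.8 CPM (36.6 to 41.1) labelled KO at dpi2, and 49.2 CPM (47.4 to 50.9) in control and 55.6 CPM (53.5 to 57.8) labelled KO at dpi4. The genotype log2 ratio was -0.58 (-0.69 to -0.48) for dpi2, a shade under 1.5-fold and so not past the size rule, and 0.18 (0.10 to 0.25) at dpi4. The ratio for dpi2 did pass with classes from marker UMIs, without doublet removal, with a mitochondrial limit of 20% and with libraries clustered apart. Monocytes of dpi2 had 41.4 CPM in control and 32.8 CPM labelled KO, with a log2 ratio of -0.34 (-0.50 to -0.18). Within the monocyte clusters it was -0.12 (-0.35 to 0.11) in cluster 1, 0.76 (0.04 to 1.44) in cluster 8 and 0.13 (-0.39 to 0.68) in cluster 10, so no interval lay below 0. In the few control monocytes of dpi4, 7 UMIs gave 16.6 CPM, and the log2 ratio of dpi4 over dpi2 was -1.32 (-2.64 to -0.27), past the size rule. This call was lost at clustering resolution 2 (-0.28), with libraries clustered apart (-0.11) and with monocytes and macrophages pooled (-0.06). In dendritic cells, Nr1h3 stood at 17.2 and 18.7 CPM at dpi2 and at 16.9 and 12.8 CPM at dpi4. Neutrophils held 8, 7, 2 and 0 UMIs, and T or NK cells 0, 0, 0 and 2. The order over classes in both libraries of dpi2 was macrophages, monocytes, dendritic cells and neutrophils, and no neighbouring intervals overlapped.

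Rxra, which encodes a shared partner of both PPARs and LXRs, was the receptor gene that passed the size rule in macrophages at both time points, each time higher labelled KO. Its macrophage levels were 28.1 CPM (26.4 to 29.9) in control and 49.2 CPM (46.7 to 51.8) labelled KO at dpi2, and 47.6 CPM (45.9 to 49.4) in control and 86.4 CPM (83.7 to 89.1) labelled KO at dpi4. The library labelled KO at dpi2 thus overlapped the control library of dpi4. Genotype log2 ratios of 0.81 (0.69 to 0.92) for dpi2 and 0.86 (0.79 to 0.93) for dpi4 were both past the size rule. Between dpi2 and dpi4 the log2 ratio was 0.76 (0.66 to 0.86) in control and 0.81 (0.72 to 0.90) labelled KO for the whole class, whose cells lay in different clusters at the 2 time points (cluster 2 held 65.4% of control macrophages at dpi2 and 2.1% at dpi4). Within cluster 2 this ratio over time was 0.20 (-0.21 to 0.59) in control and -0.59 (-1.21 to -0.03) labelled KO, and in cluster 5 it was 0.36 (-0.20 to 0.88) labelled KO. In cluster 9 it was 1.35 (0.69 to 2.09) in control and 1.11 (0.68 to 1.57) labelled KO, and in cluster 13 it was 1.01 (0.33 to 1.75) in control, so the direction over time depended on the cluster. In monocytes at dpi2 Rxra stood at 18.7 CPM (17.1 to 20.4) in control and 27.5 CPM (24.8 to 30.4) labelled KO, a log2 ratio of 0.56 (0.36 to 0.75), which did not reach 1.5-fold. In dendritic cells the 4 libraries had 6.94, 10.3, 9.27 and 12.4 CPM, and the intervals of the log2 ratios, -0.10 to 1.26 at dpi2 and -0.14 to 0.99 at dpi4, held 0. Neutrophils held 3 UMIs (1.98 CPM) in control and 28 UMIs (9.79 CPM) labelled KO at dpi2, a ratio of 4.95 (1.53 to 25.4) from fewer than 50 UMIs, and 1 and 6 UMIs at dpi4.

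The share of cells gave the same order for Rxra. After thinning to 2000 UMIs, an Rxra UMI was found at dpi2 in 5.81% (4.80% to 6.96%) of macrophages in control and 9.70% (7.97% to 11.7%) labelled KO, and 8.61% (7.67% to 9.62%) and 15.4% (14.0% to 16.8%) at dpi4. Dendritic cells had 0.781% to 1.87%, and T or NK cells 0% to 4.17%, so the dendritic cell shares lay within the range of this background. Without thinning, the shares were 33.8%, 61.0%, 48.9% and 63.7% of macrophages. Neutrophil markers were also higher in macrophages labelled KO at dpi2, with a summed level over all 7 markers of 328 CPM against 104 CPM in control, and 73.9 against 95.3 CPM at dpi4, and none of the 7 was at 0. The part of neutrophil RNA in the Rxra difference was not tested. Neutrophils had 9.79 CPM of Rxra labelled KO at dpi2. Cluster 11 scored highest for neutrophil markers, but was left without a name because it was shallow and no such marker was among its leading genes. It held 505 cells labelled KO at dpi2 and 88 in control, and had 49.2 CPM of Rxra and 34.9 CPM of Ppard in the former. With classes set from marker UMIs per cell, Ppard and Rxra passed the size rule in neutrophils at dpi2.

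Rxrb, the other shared partner, differed with time in macrophages as a whole class, and its genotype ratios had intervals that held 0. Levels were 12.4 CPM (11.3 to 13.6) in control and 12.4 CPM (11.2 to 13.8) labelled KO at dpi2, and 32.1 CPM (30.7 to 33.6) in control and 30.6 CPM (29.1 to 32.3) labelled KO at dpi4. Genotype log2 ratios were -0.00 (-0.20 to 0.20) for dpi2 and -0.07 (-0.17 to 0.03) for dpi4, while that of dpi4 over dpi2 was 1.37 (1.22 to 1.52) in control and 1.30 (1.13 to 1.47) labelled KO. Within clusters with at least 30 cells at both times, the Rxrb ratio over time was 0.33 (-0.37 to 0.95) in control and 0.03 (-1.03 to 0.95) labelled KO in cluster 2, -0.22 (-1.86 to 1.02) labelled KO in cluster 5, and 0.65 (-0.08 to 1.45) in control in cluster 13. It was 0.98 (0.19 to 1.90) in control and 1.34 (0.51 to 2.31) labelled KO in cluster 9, where alone the interval left out 0. These ratios rest on 5 to 22 UMIs in the smaller sum of each pair. Dendritic cells had 16.8, 19.9, 32.1 and 27.5 CPM, and here the control ratio over time, a log2 ratio of 0.94, was past the size rule and that labelled KO was not. The control call was lost with libraries clustered apart, where the log2 ratio was 0.75, and with a 2-fold limit. In neutrophils, 21.8 CPM (33 UMIs) at dpi2 and 63.0 CPM (23 UMIs) at dpi4 in control gave a log2 ratio of 1.53, also past the rule, but not with a minimum of 200 UMIs. The 6 muscle cell markers, of which 5 and 4 had UMIs at dpi2 and 6 at dpi4, summed to 5.16 and 5.13 CPM in macrophages at dpi2 and to 56.4 and 20.2 CPM at dpi4, and their part in the differences over time was not tested.

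**Figure D2:**
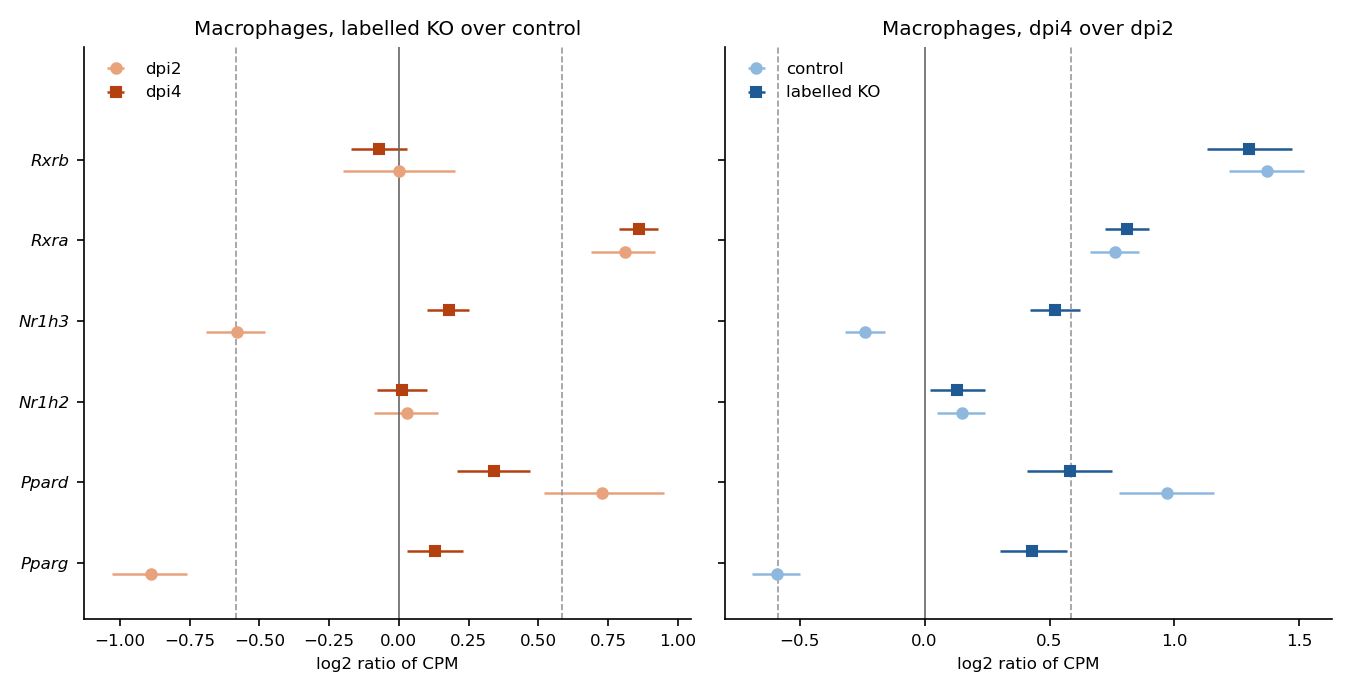
Log2 ratios of CPM of the 6 receptor genes in macrophages, labelled KO over control at dpi2 (circles) and dpi4 (squares) on the left and dpi4 over dpi2 in control (circles) and labelled KO (squares) on the right. Bars are exact 95% counting intervals and dashed lines mark 1.5-fold. Rxra lies at 0.81 and 0.86 on the left, and Rxrb at 1.37 and 1.30 on the right but near 0 on the left.

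The calls were set beside those over all genes with at least 50 UMIs in the pair. In macrophages, 3 of the 6 receptors (Pparg, Ppard, Rxra) passed the size rule between genotypes at dpi2, where 11.9% of 11070 genes did, and 1 (Rxra) at dpi4, where 8.2% of 12066 did. With a 2-fold limit none passed at either time. In monocytes at dpi2, 1 receptor (Pparg) passed, against 11.4% of genes. In dendritic cells 1 receptor (Pparg) passed at each time point, against 9.13% of genes at dpi2 and 5.3% at dpi4. The call at dpi2 was lost with classes from marker UMIs, with libraries clustered apart and with a minimum of 200 UMIs, and the call at dpi4 without doublet removal, with a minimum of 200 genes per cell, with means over cells, with a 2-fold limit and with 200 UMIs. In neutrophils at dpi2 none of the 3 receptors with 50 UMIs passed, against 26.3% of genes, and there the median log2 ratio of all genes was -0.31, against which the ratios were 0.60 (-0.27 to 1.56) for Ppard, -0.28 (-0.70 to 0.15) for Nr1h2 and -0.21 (-0.86 to 0.47) for Rxrb. The intervals of Nr1h2 and Rxrb held that median. In monocytes and neutrophils at dpi4, no receptor had 50 UMIs in the pair.

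Over time, the background was wider. In control macrophages 4 receptors passed (Ppard, Rxra and Rxrb higher at dpi4, Pparg lower), against 36.6% of genes, and in macrophages labelled KO 2 passed (Rxra and Rxrb), against 32.6%. Labelled KO, Rxra no longer passed at clustering resolution 2 (log2 ratio 0.55). In control, Rxra was lost with classes from marker UMIs (0.51), Pparg without doublet removal and with TMM factors (-0.56 in both), and Ppard with monocytes and macrophages pooled (0.58). With a 2-fold limit Rxrb was left in each genotype. In monocytes 1 receptor (Nr1h3, on 7 UMIs at dpi4 and lost under the 3 settings given above) passed in control, against 12.9% of genes, and none labelled KO, against 17.8%. In neutrophils 1 (Rxrb) passed in control, against 30.2%, and none labelled KO, against 24.8%. In dendritic cells 1 (Rxrb) passed in control, against 19.0%, and none labelled KO, against 18.7%.

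Macrophages of the 2 genotypes shared clusters at dpi2 but filled them in different shares, and most macrophages of dpi4 lay in other clusters. Cluster 2, led by Pdpn, Hmga2, Htr2b and Spp1, held 65.4% of macrophages in control and 22.8% in the library labelled KO, while cluster 5, led by Ppbp, Gja1 and Cd163, held 26.8% and 69.5%. The receptors and the listed genes had been kept out of the clustering. At dpi4, cluster 4 (led by Tmem176b) held 33.6% and 15.9% and cluster 0 (led by Slc40a1 and Vcam1) 25.7% and 40.9%, with cluster 7 at 18.9% and 20.4% and cluster 9 (led by Mmp12) at 16.3% and 17.6%. Clusters 2 and 5 held 2.1% and 0.659% of control macrophages at dpi4, and 1.41% and 1.26% of those labelled KO, so the differences over time compare mostly different clusters. Within cluster 2, Pparg in control had a log2 ratio over time of -0.43 (-0.84 to -0.05), and within clusters 9 and 13 it was -0.05 (-0.54 to 0.47) and 0.19 (-0.59 to 1.01). Labelled KO, Pparg over time was -0.02 (-0.62 to 0.54) in cluster 2, 0.31 (-0.66 to 1.13) in cluster 5 and 1.0 (0.40 to 1.68) in cluster 9, the last on 23 UMIs at dpi2 and 457 at dpi4. For Ppard, the within-cluster intervals over time held 0 in control and labelled KO alike. With 1 library per group, a cluster that is mostly of 1 library may be that library and not a state.

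Within these clusters, Rxra stayed higher in cells labelled KO in both large clusters of dpi2. In cluster 5 it had 16 CPM in control and 50.8 CPM labelled KO, a log2 ratio of 1.67 (1.42 to 1.92), and in cluster 2 it had 34.2 and 48.5 CPM, a log2 ratio of 0.51 (0.31 to 0.70). At dpi4 the log2 ratio was 0.83 (0.72 to 0.94) in cluster 0, 0.61 (0.43 to 0.80) in cluster 4, 0.99 (0.79 to 1.2) in cluster 7, 0.62 (0.48 to 0.76) in cluster 9 and 0.83 (0.42 to 1.23) in the cycling cluster 13, led by Top2a. In cluster 2 at dpi4, with 70 and 37 cells, it was -0.29 (-1.0 to 0.38). Cluster 0 labelled KO had the highest Rxra of these, at 117 CPM (112 to 122). Rxra thus differed in 1 direction in each cluster whose interval left out 0.

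Nr1h3 went opposite ways in the 2 large clusters of dpi2. In cluster 2 it had 73.5 CPM in control and 46.0 CPM labelled KO, a log2 ratio of -0.68 (-0.86 to -0.50), and in cluster 5 it had 22.0 and 34.3 CPM, a log2 ratio of 0.64 (0.42 to 0.87). Pparg was lower labelled KO in both clusters, with log2 ratios of -0.58 (-0.79 to -0.37) in cluster 2 and -0.36 (-0.59 to -0.13) in cluster 5, each smaller than the -0.89 of the whole class. Ppard was higher in both, at 0.50 (0.12 to 0.87) and 1.21 (0.80 to 1.64). Nr1h2 and Rxrb ranged from -0.11 to 0.06 in the same clusters, with intervals that held 0.

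At dpi4, Nr1h3 was again split, at 0.46 (0.31 to 0.61) in cluster 0 and 0.59 (0.37 to 0.81) in cluster 7, but -0.22 (-0.35 to -0.09) in cluster 9. Monocytes were split in the same manner as macrophages at dpi2. Cluster 1, led by Ly6c2 and Ifi205, held 59.3% of control monocytes and 21.6% labelled KO, and cluster 10, led by Vcan and Il6, held 4.86% and 59.0%. In cluster 1 Pparg had 57.8 CPM in control and 28.7 CPM labelled KO, a log2 ratio of -1.01 (-1.33 to -0.71), and in cluster 10 it had 29.4 and 19.0 CPM, a log2 ratio of -0.63 (-1.15 to -0.08). In cluster 8, led by Ifitm6, the Pparg log2 ratio was -0.25 (-0.82 to 0.28). Rxra had log2 ratios of 0.79 (0.46 to 1.11) in cluster 1, 0.37 (-0.12 to 0.84) in cluster 8 and 0.84 (0.16 to 1.60) in cluster 10.

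**Figure D3:**
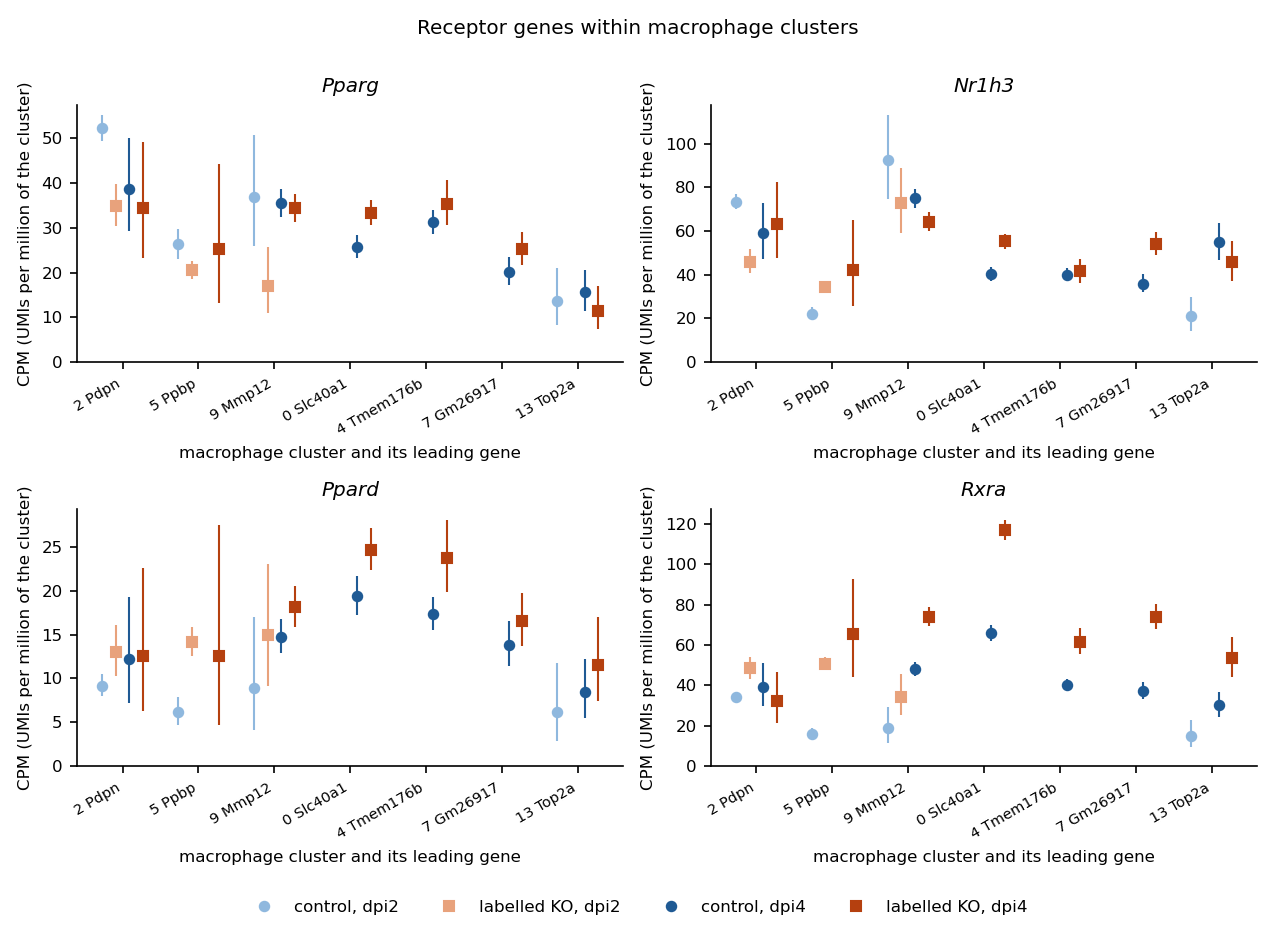
Pparg, Nr1h3, Ppard and Rxra (vertical axes, CPM of the cluster) in 7 macrophage clusters, shown with their leading gene, for each library with at least 30 cells. Bars are exact Poisson 95% intervals, with colours as in the plot of levels by class. Rxra labelled KO lies above control in clusters 5 and 0 (50.8 against 16 CPM and 117 against 65.9 CPM), while Nr1h3 labelled KO lies below control in cluster 2 and above it in cluster 5.

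When monocytes and macrophages were clustered again on their own, 10 sub-clusters were found, and 9 of them drew 84.8% to 99.1% of their cells from 1 library. Rxra ran from 14.1 CPM in sub-cluster 8 (led by Ccl8) to 92.8 CPM in sub-cluster 2 (led by Slc40a1, 97.5% from the library labelled KO of dpi4), a ratio of 6.6. Pparg ran from 14.5 CPM in the cycling sub-cluster 9 to 52.0 CPM in sub-cluster 3 (led by Hmga2), a ratio of 3.58. Nr1h3 ran from 23.7 to 72.1 CPM between sub-clusters 8 and 3, Ppard from 6.66 to 22.4 CPM between sub-clusters 8 and 2, and Rxrb from 12.1 to 33.6 CPM between sub-clusters 8 and 1. Nr1h2 ran from 32.1 to 41.5 CPM, a ratio of 1.29. Which receptor had the widest range depended on the number of sub-clusters. With 14 sub-clusters, at resolution 1, the ratio of highest to lowest was 7.16 for Nr1h3 (3.04 with 10) and 6.89 for Rxra.

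The genes whose levels ran most like each receptor were ranked by Pearson's r of log2(CPM + 1) over the 16 sums of 4 classes in 4 libraries, among 10226 genes with at least 500 UMIs. These points share libraries and classes, and the correlations are descriptions. Pparg ran most like Sdc3 (r = 0.983), Vwa5a (0.961) and Stom (0.960), and Nr1h3 like Tceal8 (0.972), Plxnb2 (0.968) and Bag3 (0.967). Rxra ran like C4b (0.922), Aldh2 (0.918) and Npc1 (0.909), of which the last carries cholesterol out of lysosomes. Ppard ran like Bin2 (0.917), Kif13a (0.842) and Atp13a3 (0.819), Nr1h2 like Pik3r6 (0.899), Nipbl (0.899) and Ash1l (0.880), and Rxrb like Vipr1 (0.888), Gm16638 (0.848) and Paip2 (0.832). Among the receptors, the highest r was 0.70 between Pparg and Nr1h3, and the lowest -0.65 between Nr1h2 and Nr1h3.

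The lists of genes around the receptors are given by their counts past the size rule, which 11.9% of all genes passed in macrophages at dpi2 and 8.2% at dpi4. These are ratios of whole classes. The list genes were not compared within clusters, which the genotypes filled in different shares. Of the 13 listed LXR targets, which include Nr1h3 itself, 12 had 50 UMIs in the pair, 1 was higher and 1 lower past the size rule, and the median log2 ratio was 0.02 against -0.02 over all genes. Abcg1, a cholesterol exporter, fell from 106 CPM in control to 62.0 CPM labelled KO (log2 ratio -0.78, -0.86 to -0.70), and Pltp, which transfers phospholipids, rose from 64.7 to 106 CPM (0.71, 0.64 to 0.79). At dpi4, with 13 targets scored, 2 were higher and 1 lower, and the median was 0.18 against 0.01. Scd2, a fatty acid desaturase, rose from 38.6 to 77.3 CPM (1.0, 0.93 to 1.08) and Srebf1, the master gene of lipid synthesis, from 15.5 to 23.5 CPM (0.60, 0.47 to 0.72). Scd1 fell from 1.16 to 0.618 CPM (-0.91, -1.58 to -0.27) on 101 UMIs.

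Of the 17 PPAR targets, 16 were scored in macrophages. At dpi2, 1 was higher and 1 lower, with a median of -0.11 against -0.02. Fabp4, a fatty acid carrier, fell from 409 to 230 CPM (-0.83, -0.87 to -0.79), and Hilpda, which slows lipolysis and also responds to hypoxia, rose from 81.5 to 226 CPM (1.47, 1.41 to 1.54). Fabp4 and Cd36 were among the leading genes of sub-cluster 3, which drew 92.0% of its cells from the control library of dpi2. The part of cluster shares in these ratios was not tested. At dpi4, 3 were higher and none lower, with a median of 0.01 against 0.01. These were Lpl, which frees fatty acids from lipoproteins (700 to 1336 CPM, log2 ratio 0.93), the fatty acid receptor Cd36 (323 to 552 CPM, 0.77) and the transglutaminase Tgm2 (108 to 168 CPM, 0.64). At dpi2, Lpl and Cd36 had had log2 ratios of -0.32 and -0.37. The genes of fatty acid oxidation on the list (Cpt1a, Acadl, Acadvl, Hadha, Hadhb, Slc25a20, Acaa2 and Ech1), grouped here after their values were seen, stayed short of the size rule at both times, with log2 ratios from -0.28 to 0.34.

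RXR also pairs with other receptors. Of 16 listed partners and other nuclear receptors, 10 were scored in macrophages at dpi2, 4 were higher and none lower, and the median was 0.41 against -0.02. The 3 orphan receptors of the Nr4a family led the list, with Nr4a3 rising from 34.0 to 103 CPM (1.61, 1.51 to 1.70), Nr4a2 from 49.8 to 137 CPM (1.46, 1.38 to 1.54) and Nr4a1 from 147 to 362 CPM (1.30, 1.25 to 1.35). They are immediate early genes. The clock repressor Nr1d1 rose from 4.36 to 7.54 CPM (0.79, 0.49 to 1.09). At dpi4, 1 of 11 was higher, the vitamin D receptor Vdr (1.06 to 2.24 CPM, log2 ratio 1.07), and none lower, and the median was -0.11 against 0.01. Nr4a1, Nr4a2 and Nr4a3 then had log2 ratios of -0.33, -0.11 and 0.06. Ppara, Rxrg, Rarb and Nr1h4 had no UMI in the macrophages of dpi2, among 37594438 UMIs of control and 29031106 UMIs labelled KO.

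Of 17 co-regulators, 16 were scored, 1 was higher and none lower at dpi2, and none passed at dpi4, with medians of 0.09 and 0.08 against -0.02 and 0.01. The gene past the rule was Ncoa4 (3.70 to 6.99 CPM, 0.92, 0.60 to 1.24), which is also the receptor for ferritin turnover.

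Of 20 genes that make or carry ligands, 12 were scored at dpi2, 4 were higher and none lower, with a median of 0.38 against -0.02. Ptgs1, cyclooxygenase 1, rose from 1.68 to 5.41 CPM (1.69, 1.26 to 2.14) and Pla2g7, a phospholipase for oxidised lipids, from 130 to 264 CPM (1.02, 0.97 to 1.07). The lipoxygenase Alox5 rose from 4.84 to 8.61 CPM (0.83, 0.55 to 1.11). At dpi4, 14 were scored, 4 were higher and 1 lower, with a median of 0.24 against 0.01. Aldh1a2, which makes retinoic acid, rose from 0.371 to 0.894 CPM on 65 UMIs (1.27), Ch25h, cholesterol 25-hydroxylase, from 1.5 to 3.26 CPM (1.12), and Ptgs1 from 27.7 to 52.8 CPM (0.93). The 1 that fell was Cyp27a1, which makes 27-hydroxycholesterol, from 40.6 to 26.4 CPM (-0.62, -0.72 to -0.52), named here after its value was seen. Ptgs1 was higher labelled KO at both time points.

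**Figure D4:**
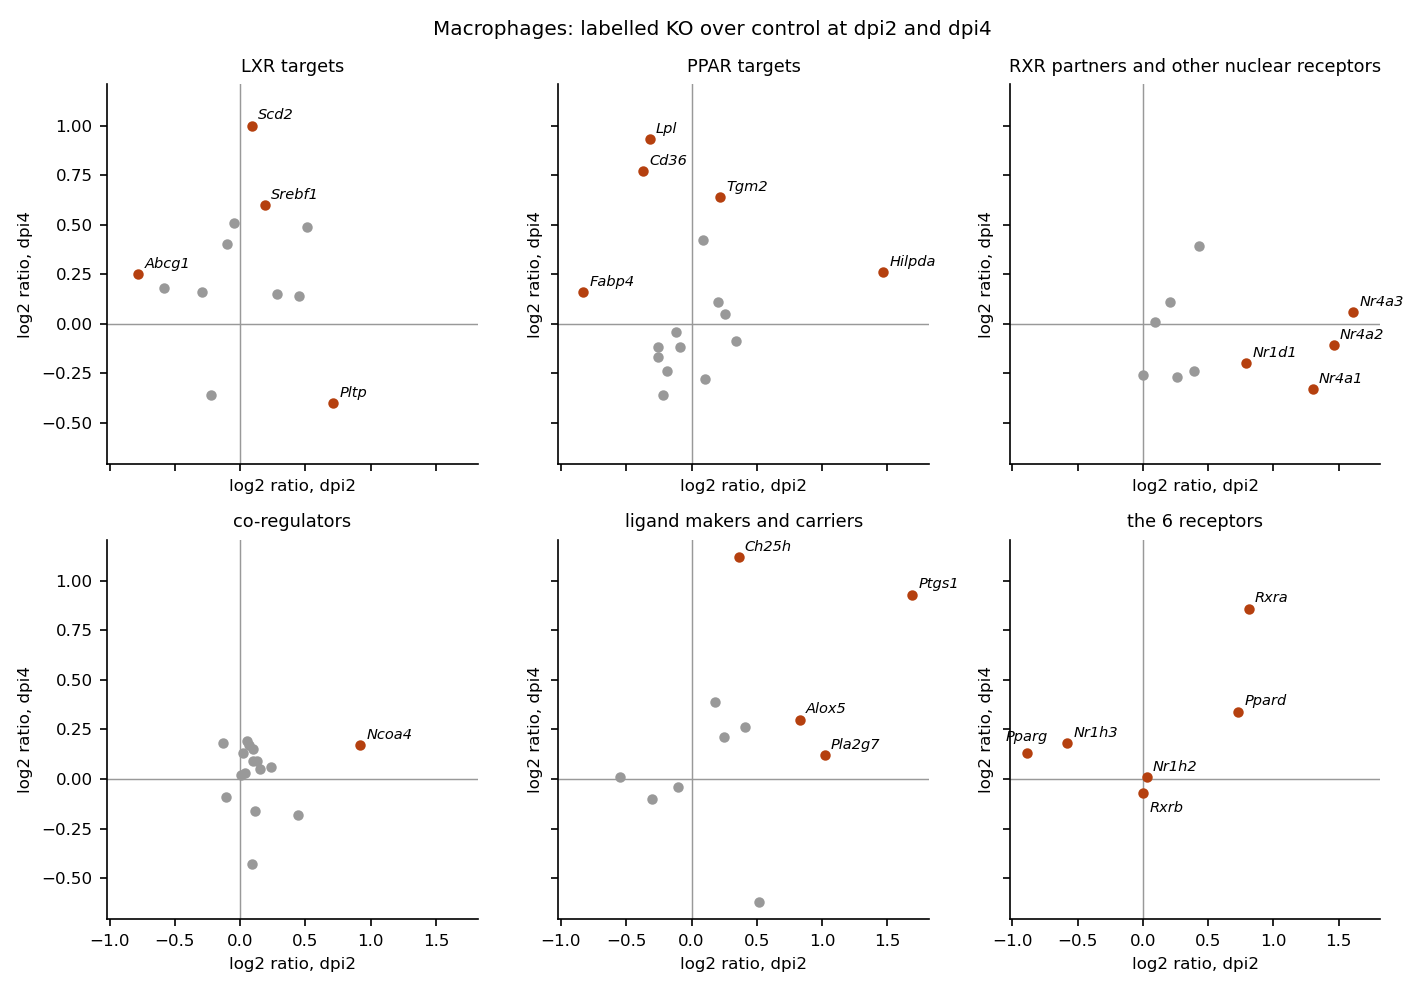
Log2 ratio of labelled KO over control in macrophages at dpi2 (horizontal) and dpi4 (vertical), 1 point per gene with at least 50 UMIs in both pairs (1 ligand gene is not shown), in 6 panels for the 5 lists and the receptors. Coloured and labelled points are genes past the size rule at either time point, at most 4 per list and time point, and all 6 receptors. Nr4a genes lie far right near 0 on the vertical axis, Cd36 and Lpl lie upper left, and Rxra lies upper right at 0.81 and 0.86.

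In dendritic cells at dpi2, where Pparg was the receptor past the rule and 9.13% of all genes passed, the LXR list had 2 genes higher and 1 lower of 12 scored, with a median of 0.30 against -0.01, and the PPAR list 2 higher and none lower of 15, with a median of 0.13. Monocytes at dpi2, where 11.4% of all genes passed, had 2 higher and 1 lower of 12 LXR targets and 1 higher and 1 lower of 16 PPAR targets, with medians of 0.08 and -0.01 against 0.00 over all genes. In neutrophils at dpi2, where 26.3% of all genes passed, 3 of 8 LXR targets were lower and none higher, with a median of -0.31 that equals the median of all genes there. Over time in macrophages, where 36.6% of all genes passed in control and 32.6% labelled KO, 6 of 13 LXR targets were higher and 1 lower at dpi4 in control, with a median of 0.57 against -0.07 over all genes, and 7 of 12 higher and 1 lower labelled KO, with a median of 0.97 against -0.04.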

How the data were processed

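Single-cell 3′ libraries of CD45+ cells were analysed, 1 per group. The authors deposited raw UMI counts per gene and barcode from Cell Ranger (6.1.2 per the labels) on mm10, without normalization. The study filtered with miQC and scDblFinder and joined libraries with Harmony. Here, barcodes with a mitochondrial share under 10% and at least 500 genes were kept, the highest Scrublet scores were removed at 0.8% per 1000 cells, and cells were clustered jointly without integration (scanpy 1.11.5, 2000 variable genes without the listed genes, 30 components, 15 neighbours, Leiden resolution 1; sub-clusters 0.6). Clusters were named from fixed markers (at least 3 detected in 10% of cells). An unnamed shallow cluster stayed out of the classes. UMIs were summed per class and library. Named list genes were those past the size rule in macrophages, at most 4 per list and comparison by absolute log2 ratio, with Cyp27a1 added; 1 ligand gene and 1 leading gene of a cluster are not reported here by name. Apoe and Mertk, also LXR targets, were class markers and left out of the lists. The count, ratio and interval steps were tested on simulated data. The receptors and lists were chosen with earlier results of these data known. TMM factors came from edgeR 4.0.16. Alternatives are given in the closing section.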

Additional observations from a re-analysis of the deposited data

Results flagged for a closer look

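No group had the 4 samples needed to look for a sample apart from the rest. Pparg and Nr1h3 in macrophages went opposite ways between the genotypes at the time points, with counting intervals that left out 0 on both sides: the log2 ratio of labelled KO over control was -0.89 at dpi2 and 0.13 at dpi4 for Pparg, and -0.58 at dpi2 and 0.18 at dpi4 for Nr1h3. Each rests on 1 library per group, and the difference was not tested.

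Nr1h3 also went opposite ways between macrophage clusters, with log2 ratios of -0.68 in cluster 2 and 0.64 in cluster 5 at dpi2, and of 0.46 in cluster 0, 0.59 in cluster 7 and -0.22 in cluster 9 at dpi4. The difference was not tested.

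In cluster 11, a shallow group of cells with a median of 3450 UMIs that was left without a name and out of the class sums, Rxra stood at 49.2 CPM (93 UMIs) and Ppard at 34.9 CPM (66 UMIs) in the library labelled KO at dpi2, against 7.75 CPM (2 UMIs each) in control. This cluster held 505 cells labelled KO and 88 control cells at dpi2.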

How the results depend on the processing

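No paired analysis was possible because the labels give no replicate numbers and each group was 1 library, and no replicate could be left out. TMM factors, no doublet removal and a minimum of 200 genes kept all 73 log2 ratios within their counting intervals. A mitochondrial limit of 20% moved 1, clustering at resolution 2 moved 6, classes from marker UMIs 10, means over cells 9, clustering each library by itself 23, and pooling monocytes with macrophages 10 of 42, none with a change of sign in a ratio past the size rule. In macrophages, Nr1h3 at dpi2 was -0.47 with monocytes pooled, and at dpi4 0.09 at resolution 2, 0.36 with libraries clustered apart and 0.29 as a mean over cells. Rxra at dpi2 was 0.63 with classes from marker UMIs, and at dpi4 0.59 at resolution 2 and 0.71 with libraries clustered apart. Rxrb at dpi4 was -0.20 and -0.22 under the same 2 settings. The cause was not tested.

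Ratios within macrophage clusters were added after the data had been seen. At dpi2, in clusters 2, 5 and 9, Pparg was -0.58, -0.36 and -1.10 and Nr1h2 -0.11, -0.10 and 0.19. Nr1h3 was 0.64 in cluster 5 and -0.34 in cluster 9, Ppard 0.50 and 1.21 and Rxra 0.51 and 1.67 in clusters 2 and 5. At dpi4, in clusters 0, 2, 7, 9 and 13, Pparg was 0.37, -0.17, 0.32, -0.05 and -0.43. In clusters 0, 2, 4, 7, 9 and 13, Nr1h2 was 0.10, -0.38, 0.11, -0.09, -0.12 and 0.19 and Nr1h3 0.46, 0.10, 0.05, 0.59, -0.22 and -0.26. Rxra was 0.61, 0.99 and 0.62 in clusters 4, 7 and 9 and reversed to -0.29 in cluster 2, on 86 UMIs. Rxrb was 0.08, -0.17 and 0.34 in clusters 7, 9 and 13.

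The number of receptors past the size rule was 0 in macrophages between genotypes at both times with a limit of 2-fold, and 1 (Rxrb) over time in control and labelled KO. At resolution 2 it was 1 (Rxrb, without Rxra) over time labelled KO. In monocytes between genotypes at dpi2 it was 2 (Pparg with Rxra or Ppard) with classes from marker UMIs, libraries clustered apart, means over cells or macrophages pooled, and at dpi4 1, 2 and 1 with marker classes, libraries apart and pooling. Over time in monocytes, control gave 0 at resolution 2, 2 (Rxra and Rxrb) with libraries apart and 3 (these and Pparg) with pooling, each without Nr1h3, and labelled KO gave 2 with marker classes, 1 with a mitochondrial limit of 20%, 1 at resolution 2, 2 with libraries apart, 1 as means over cells and 3 with pooling. In neutrophils at dpi2 it was 2 with marker classes (Ppard and Rxra) and 1 (Ppard) with TMM factors or means over cells, and over time in control 0 with at least 200 UMIs. In dendritic cells at dpi2 it was 0 with marker classes, libraries apart or at least 200 UMIs, and 2 without doublet removal, with 200 genes, at resolution 2 or as means over cells. At dpi4 it was 0 without doublet removal, as means over cells, with 2-fold or with at least 200 UMIs, and 2 at resolution 2 or with libraries apart. Over time in dendritic cells, control gave 2 (Rxrb and Nr1h3) at resolution 2 and 0 with libraries apart or 2-fold, and labelled KO gave 1 with marker classes, no doublet removal, a mitochondrial limit of 20%, 200 genes or means over cells. Monocytes and neutrophils of dpi4 hold few UMIs of each receptor, which limits their ratios.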
